A study of Mus musculus with 6 samples.

Results

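The machinery that fuses and divides mitochondria was examined in brown adipose tissue (BAT) through 10 genes, Mfn1, Mfn2, Opa1, Oma1, Yme1l1, Dnm1l, Fis1, Mff, Mief1 and Bnip3. They were chosen by symbol, as every probe set of the array that is annotated to 1 of these genes and to no other, which gave 26 probe sets out of 34945 with a single symbol, and 10 genes out of 18193. BAT came from 3 mice deficient in KRAP (Ki-ras-induced actin-interacting protein, KO) and from 3 wild-type mice (WT). Each KO mouse was matched with a WT littermate (pairs 1 to 3), all were 32 weeks old on normal chow, and the RNA of each animal was hybridised to 1 Affymetrix mouse genome array. The KO allele is a germline deletion carried in every tissue, in which a neomycin resistance cassette stands in for exons 11 to 16, or 55% of the coding region, and the line had been backcrossed 6 times to C57BL6/J. In a tissue of several cell types, fewer cells of a type and less RNA per cell cannot be told apart.

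Mitochondria form a network whose shape is set by the balance of fusion and division. The GTPases mitofusin 1 and mitofusin 2 join outer membranes, and OPA1 joins inner membranes. The long forms of OPA1 are cut to short forms by the proteases OMA1 and YME1L. The GTPase DRP1, encoded by Dnm1l, constricts mitochondria once the outer membrane receptors MFF, FIS1 and MiD51 (encoded by Mief1) have brought it from the cytosol. Brown adipocytes are packed with mitochondria, and adrenergic stimulation is known to fragment their network. Much of the control of DRP1 and OPA1 acts on the proteins, by phosphorylation and cleavage, which an array of transcripts does not measure.

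Promoter windows of 300 bases, from 250 before to 50 after a transcription start, were read for all 10 genes from RefSeq (GRCm38.p6), 15 windows in all since some genes have several starts. They were searched on both strands for 4 motifs: that of nuclear respiratory factor 1 (NRF-1), a near palindrome of 10 letters with 1 free position, of which the capital run in the Opa1 window below is a case; ACGTG and GCGTG, cores bound by hypoxia-inducible factors; and AAGGTCA of the estrogen-related receptors. The NRF-1 motif was found for Opa1, Oma1 and Bnip3, in 3 of the 15 windows, and in 4.60% of 32851 windows of that length. ACGTG was found for Mfn2 and Bnip3, in 3 of the 15, and in 19.6% of all windows. GCGTG was found for Mfn2, Dnm1l, Fis1 and Bnip3, in 7 of the 15, and in 32.4%, and AAGGTCA in 0 of the 15 and in 4.72%. Windows of 1 gene can overlap and share a match, as those of Mfn2 do. Shown are the windows of Bnip3 and Mff, the members with the highest and the lowest difference on their probe set of highest signal, and of Opa1 for its NRF-1 match, with every match in capitals.
Bnip3 (chr7:138909457-138909756, minus strand): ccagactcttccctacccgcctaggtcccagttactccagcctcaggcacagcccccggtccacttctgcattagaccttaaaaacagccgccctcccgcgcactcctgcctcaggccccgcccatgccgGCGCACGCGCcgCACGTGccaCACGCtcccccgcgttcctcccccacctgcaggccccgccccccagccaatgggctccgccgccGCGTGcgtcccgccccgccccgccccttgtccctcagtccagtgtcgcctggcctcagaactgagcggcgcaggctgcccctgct
Mff, the first of its windows (chr1:82724640-82724939, plus strand): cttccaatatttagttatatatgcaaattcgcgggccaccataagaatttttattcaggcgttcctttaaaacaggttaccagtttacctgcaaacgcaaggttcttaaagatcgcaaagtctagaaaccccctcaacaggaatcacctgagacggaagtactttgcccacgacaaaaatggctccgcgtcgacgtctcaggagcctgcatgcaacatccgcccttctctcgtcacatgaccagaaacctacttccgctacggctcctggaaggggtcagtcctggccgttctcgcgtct
Opa1 (chr16:29579084-29579383, plus strand): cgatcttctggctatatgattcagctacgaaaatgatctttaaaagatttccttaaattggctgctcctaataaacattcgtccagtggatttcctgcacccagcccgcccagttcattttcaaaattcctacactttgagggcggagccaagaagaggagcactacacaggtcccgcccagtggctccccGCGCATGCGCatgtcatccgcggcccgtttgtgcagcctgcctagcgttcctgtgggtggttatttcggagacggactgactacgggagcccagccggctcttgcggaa
In Bnip3 the NRF-1 match begins at -120 from the start and shares 5 bases with a GCGTG match at -117, and the ACGTG matches at -108 and -107 lie on opposite strands and share 4 bases. The Mff window holds none of the 4 motifs, which says only that these letters are not in it. A match is a description and not a bound site.

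All signals below are divided by the median of their array, which lay between 16.5 and 20.4 intensity units, and 3 signals or ratios in a row always stand for pairs 1, 2 and 3. KRAP (current symbol Itprid2) had 1 probe set, at 46.95, 35.1 and 41.4 in KO against 55.3, 56.6 and 42.2 in WT. Genotypes overlapped there, and as its position relative to the deleted exons is unknown here, it checks no label. The 10 brown adipocyte markers all lay above the array median and summed to 1987 to 2643. Several arrays stood apart. WT 2 did so by 3' over 5' ratios of 3.80 for actin (others 1.91 to 2.58) and 52.9 for pyruvate carboxylase (others 8.99 to 25.3). Its 18S ribosomal RNA control read 1202 intensity units, not divided by the median (others 63.0 to 123). KO 2 and WT 3 stood apart by summed signals of 10 skeletal muscle markers of 882 and 356 (others 31.96 to 114), and KO 3 by a sum of 7 liver markers of 51.9 (others 1.37 to 2.60). Among other cell types, 5 of 8 endothelial genes were lower in KO in all pairs (sums of 50.6 to 55.3 in KO and 52.6 to 71.3 in WT), and of 8 white adipocyte genes 4 were lower and 2 higher (sums of 76.3 to 116 and 91.4 to 118). Agt, among the 4 lower, was below the array median and not tested. Of all genes with a tested probe set, 19.7% were lower and 10.9% higher in all 3 pairs. Sums of 8 macrophage genes (102 to 115 and 84.5 to 119.7) and of 3 erythroid genes (5.90 to 14.2 and 6.35 to 9.94) overlapped. The part of these arrays and markers in the results was not tested.

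No transcript of the fusion and fission genes passed the test for a difference between the genotypes, and no fitted difference exceeded 0.40 on the log2 scale. Of the 26 probe sets, 22 had a mean above the array median and were tested, and these covered all 10 genes. With limma and the littermate pair as a block, 0 of the 22 passed an adjusted p of 0.05, against 0% of all 22356 tested probe sets, and 0 had an unadjusted p under 0.05, against 8.55% (1911). The latter member count was 3 with a robust prior and intensity trend and 1 with no filter on low signals. Log2 differences, KO minus WT, ran from -0.38 for Mff to 0.40 for Yme1l1. No member reached 1.5-fold in all 3 pairs, the filter of the study, which 0.555% of all tested probe sets passed upward and 0.819% downward. The median of the 22 differences was -0.072, beside -0.052 over all tested probe sets, and -0.0031 beside 0.0012 after quantile normalization. In 15 of the 22 (68.2%) the difference was below 0, as it was in 57.9% of all tested probe sets.

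The precision sets how far these differences can be read. All 22 intervals at 95% covered 0, with a median half-width of 0.47 on the log2 scale, and adjusted p values ran from 0.652 to 0.999. In 7 of the 22 the interval lay inside 1.5-fold in both directions, as it did for 21.7% of all tested probe sets. These were 2 probe sets of Mfn1 and 1 each of Opa1, Oma1, Yme1l1, Fis1 and Mief1. For the other 15, among them every tested probe set of Mfn2, Mff, Dnm1l and Bnip3, a 1.5-fold difference lies within the interval. Probe sets of 1 gene are annotated to the same symbol and were read in the same 6 animals, so they are not independent.

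**Figure D1:**
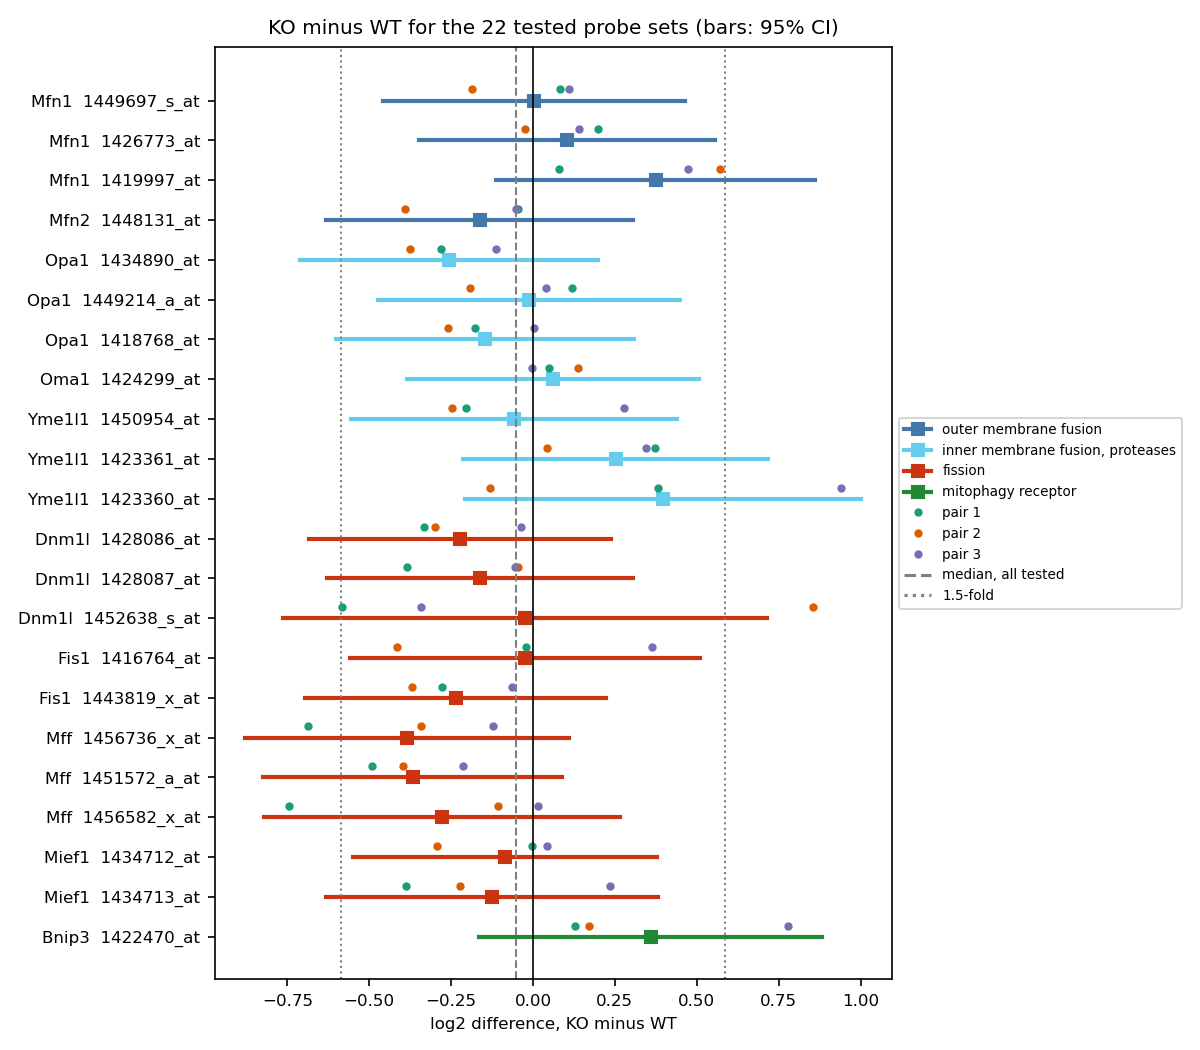
Log2 difference, KO minus WT, for the 22 tested probe sets of the 10 genes, with squares for the fitted value, bars for its 95% interval and small points for the 3 littermate pairs. Every bar crosses 0, the 10 squares of the fission genes lie left of 0 (8 with intensities as deposited and 9 after quantile normalization), and the squares run from -0.38 (Mff) to 0.40 (Yme1l1). Of all tested probe sets, 57.9% lay below 0.

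Among the mitofusins, which tether and join outer membranes, Mfn1 had 3 probe sets, all tested. 1449697_s_at read 18.7, 21.9 and 24.6 in KO, against 17.6, 24.9 and 22.8 in WT. 1426773_at read 16.1, 16.6 and 18.3 in KO, against 14.03, 16.9 and 16.6 in WT. Genotypes overlapped on both, and pair 2 ran opposite to the other pairs. The log2 difference was 0.0025 (95% interval from -0.46 to 0.46, adjusted p = 0.999 in limma) on 1449697_s_at. On 1426773_at it was 0.10 (95% interval from -0.35 to 0.56, adjusted p = 0.924 in limma). The remaining Mfn1 probe set, 1419997_at, read 2.03, 3.34 and 3.73 in KO, against 1.93, 2.25 and 2.69 in WT. This one was higher in KO in 3 of 3 pairs, with KO over WT ratios of 1.06, 1.48 and 1.39, although the genotypes overlapped. Its log2 difference was 0.37 (95% interval from -0.11 to 0.86, adjusted p = 0.664 in limma), and the annotation lists it under the same expressed sequence tag as 1449697_s_at, for which the difference was 0.0025. The suffix _s_at marks probes that can match transcripts of more than 1 gene.

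Mfn2, which also links mitochondria to the endoplasmic reticulum, was tested on 1448131_at. This probe set read 52.8, 50.2 and 52.5 in KO, against 54.5, 65.9 and 54.4 in WT. All 3 KO signals lay below all 3 WT signals, by a narrow margin outside pair 2. Means were 51.9 ± 1.42 for KO against 58.3 ± 6.59 for WT (SD, n = 3), and the log2 difference was -0.16 (95% interval from -0.63 to 0.31, adjusted p = 0.867 in limma). Without pair 2, which holds the array WT 2, it was -0.048. A dim Mfn2 probe set that was not tested, 1451900_at, read 0.650, 0.131 and 0.429 in KO, against 0.673, 0.655 and 0.343 in WT.

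Inner membrane fusion rests on Opa1, a dynamin-related GTPase that also keeps cristae in shape, with 3 tested probe sets. 1434890_at read 46.04, 56.5 and 64.4 in KO, against 56.00, 73.3 and 69.7 in WT. All pairs had a lower KO signal, at ratios of 0.822, 0.771 and 0.924, while the genotypes overlapped. The log2 difference was -0.26 (95% interval from -0.71 to 0.20, adjusted p = 0.750 in limma), and it stayed between -0.33 and -0.20 with any 1 pair left out. The other probe sets gave smaller values. 1449214_a_at read 30.4, 27.9 and 29.5 in KO, against 27.99, 31.9 and 28.8 in WT. 1418768_at read 6.06, 4.15 and 5.53 in KO, against 6.86, 4.97 and 5.53 in WT. Neither kept 1 direction in all pairs. Their log2 differences were -0.012 (95% interval from -0.47 to 0.45, adjusted p = 0.995 in limma) for 1449214_a_at, a sign that turned to 0.060 after quantile normalization, and -0.15 (95% interval from -0.60 to 0.31, adjusted p = 0.882 in limma) for 1418768_at.

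Oma1, a stress-activated protease of the inner membrane, had the single probe set 1424299_at. It read 6.22, 8.42 and 9.34 in KO, against 6.02, 7.66 and 9.36 in WT. Pairs differed more from each other than the littermates within them, whose ratios were 1.03, 1.10 and 0.999. The log2 difference was 0.061 (95% interval from -0.39 to 0.51, adjusted p = 0.955 in limma), an interval that leaves a 1.5-fold difference outside on both sides.

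Yme1l1, the protease that cuts OPA1 under basal conditions, had 4 probe sets that did not read alike. 1423361_at read 9.38, 9.002 and 11.1 in KO, against 7.26, 8.75 and 8.72 in WT. All 3 KO signals lay above all 3 WT signals, with a log2 difference of 0.25 (95% interval from -0.21 to 0.72, adjusted p = 0.764 in limma). 1450954_at read 9.44, 11.3 and 14.3 in KO, against 10.9, 13.4 and 11.8 in WT. Here pair 3 ran opposite to the other pairs, and the log2 difference was -0.058 (95% interval from -0.55 to 0.44, adjusted p = 0.962 in limma), or 0.020 after quantile normalization. 1423360_at read 1.77, 1.83 and 2.80 in KO, against 1.36, 2.002 and 1.46 in WT. Its log2 difference of 0.40 (95% interval from -0.21 to 1.002, adjusted p = 0.707 in limma) was 0.13 without pair 3, where the ratio was 1.92. These 3 probe sets are listed under 1 sequence, and whether they differ from each other was not tested. The dim 1437822_at, not tested, read 0.350, 0.162 and 0.495 in KO, against 0.441, 0.868 and 0.781 in WT.

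**Figure D2:**
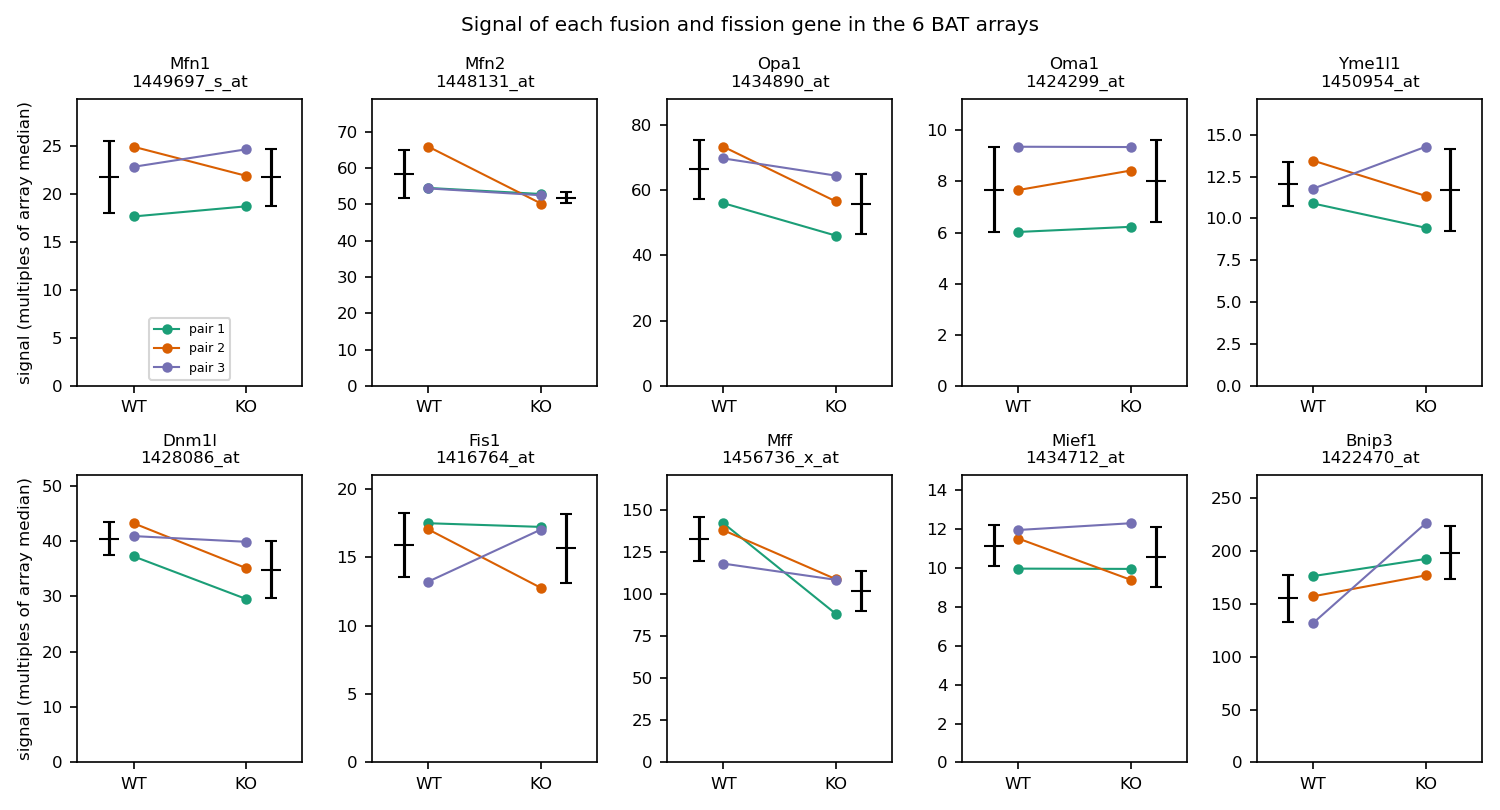
Signal of each of the 10 genes in WT and KO BAT, on its tested probe set with the highest mean, as multiples of the array median on linear axes that start at 0. Points are single arrays joined by littermate pair, and the marks beside them are means with SD (n = 3). Bnip3 lies higher, and Mff and Mfn2 lower, in all 3 KO arrays than in all 3 WT arrays, whereas WT and KO overlap in the other 7 genes.

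The fission genes shared 1 sign, though none passed the test. All 10 tested probe sets of Dnm1l, Fis1, Mff and Mief1 had a log2 difference below 0, with a median of -0.19. Of all tested probe sets, 57.9% were below 0. The count was 8 with intensities as deposited (median -0.13, beside 48.6% of all) and 9 after quantile normalization (median -0.12, beside 49.7%). It was 8 or 9 with 1 pair left out. Several of the 10 come from 1 gene, so they are not independent. Of the 30 single ratios, 25 were below 1, namely 10 in pair 1, 9 in pair 2 and 6 in pair 3. By pair the medians of the 10 were -0.39, -0.30 and -0.046, against -0.027, -0.19 and 0.056 over all tested probe sets. The order of the pairs depended on the scaling, as with intensities as deposited the medians of the 10 were -0.28, -0.018 and -0.25.

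Mff, a receptor for DRP1 on the outer membrane, had the lowest values. 1456736_x_at read 88.2, 109 and 108 in KO, against 142, 138 and 118 in WT. 1451572_a_at read 12.98, 13.5 and 16.5 in KO, against 18.3, 17.7 and 19.2 in WT. On both, all 3 KO signals lay below all 3 WT signals. Means of 1456736_x_at were 102 ± 11.8 for KO against 133 ± 12.8 for WT (SD, n = 3), 1.30-fold lower, and its ratios of 0.621, 0.789 and 0.919 put the gap widest in pair 1 and narrowest in pair 3. Its log2 difference was -0.38 (95% interval from -0.88 to 0.11, adjusted p = 0.663 in limma), or -0.23 without pair 1. For 1451572_a_at it was -0.37 (95% interval from -0.82 to 0.089, adjusted p = 0.652 in limma), with ratios of 0.711, 0.759 and 0.862, and between -0.44 and -0.31 with any 1 pair left out. The weaker 1456582_x_at read 1.91, 2.45 and 2.62 in KO, against 3.21, 2.63 and 2.59 in WT. Genotypes overlapped there, and the log2 difference of -0.28 (95% interval from -0.82 to 0.26, adjusted p = 0.778 in limma) was -0.045 without pair 1. The dim 1457371_at, not tested, read 0.365, 0.484 and 0.726 in KO, against 0.418, 0.0278 and 0.503 in WT. The suffix _x_at marks probes that can bind unrelated sequences, and _a_at marks alternative transcripts of 1 gene.

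Dnm1l, which encodes the fission GTPase itself, had 3 tested probe sets. 1428086_at read 29.5, 35.1 and 39.8 in KO, against 37.2, 43.2 and 40.9 in WT. 1428087_at read 20.2, 20.8 and 20.4 in KO, against 26.3, 21.4 and 21.2 in WT. Both were lower in KO in 3 of 3 pairs, and on 1428087_at the genotypes did not overlap, although the highest KO signal lay just below the lowest WT signal. Their log2 differences were -0.22 (95% interval from -0.68 to 0.24, adjusted p = 0.794 in limma) for 1428086_at and -0.16 (95% interval from -0.63 to 0.31, adjusted p = 0.867 in limma) for 1428087_at, the latter -0.051 without pair 1. 1452638_s_at read 3.01, 2.33 and 2.23 in KO, against 4.52, 1.29 and 2.83 in WT. Its pairs ran in opposite directions (ratios 0.667, 1.81 and 0.788), its lowest signal came from WT 2, and its log2 difference of -0.024 (95% interval from -0.76 to 0.71, adjusted p = 0.992 in limma) was -0.46 without pair 2. The dim 1428008_at, not tested, read 0.271, 0.336 and 0.242 in KO, against 0.0594, 0.109 and 0.241 in WT, with 4 of the 6 signals below the floor of 0.25 that was set before logs were taken.

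Fis1, an outer membrane adaptor of fission, gave unlike values on its probe sets. 1416764_at read 17.2, 12.8 and 17.03 in KO, against 17.5, 17.03 and 13.2 in WT. Pair 2 was lower and pair 3 higher in KO, and the log2 difference was -0.025 (95% interval from -0.56 to 0.51, adjusted p = 0.989 in limma). 1443819_x_at read 3.15, 3.74 and 3.86 in KO, against 3.82, 4.84 and 4.03 in WT. Here each KO signal was below that of its littermate although the genotypes overlapped, at a log2 difference of -0.24 (95% interval from -0.70 to 0.22, adjusted p = 0.778 in limma).

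Mief1 encodes MiD51, which recruits DRP1 and was measured on 2 tested probe sets. 1434712_at read 9.95, 9.39 and 12.3 in KO, against 9.97, 11.5 and 11.96 in WT. 1434713_at read 8.02, 6.90 and 8.78 in KO, against 10.5, 8.04 and 7.46 in WT. Pair 3 ran opposite to pairs 1 and 2 on both, and the genotypes overlapped. The log2 differences were -0.085 (95% interval from -0.55 to 0.38, adjusted p = 0.939 in limma) for 1434712_at and -0.12 (95% interval from -0.63 to 0.38, adjusted p = 0.916 in limma) for 1434713_at.

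Bnip3, an outer membrane receptor for mitophagy and a gene induced by hypoxia, was higher in KO in 3 of 3 pairs on its only probe set. 1422470_at read 193, 177 and 226 in KO, against 176, 157 and 132 in WT. All 3 KO signals lay above all 3 WT signals, the lowest of the former just above the highest of the latter. Means were 199 ± 25.2 for KO against 155 ± 22.2 for WT (SD, n = 3), 1.28-fold higher, at a log2 difference of 0.36 (95% interval from -0.17 to 0.88, adjusted p = 0.698 in limma). Ratios were 1.09, 1.13 and 1.71, and without pair 3 the log2 difference was 0.15. Pair 3 holds KO 3, with the high liver sum, and WT 3, where muscle markers summed to 356 against 31.96 in KO 3. Of the 7 liver markers with a probe set, 2 had a mean above the array median. KO 2, with the highest muscle sum, had the lowest Bnip3 signal of the KO arrays. The part of these tissues in the Bnip3 values was not tested.

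**Figure D3:**
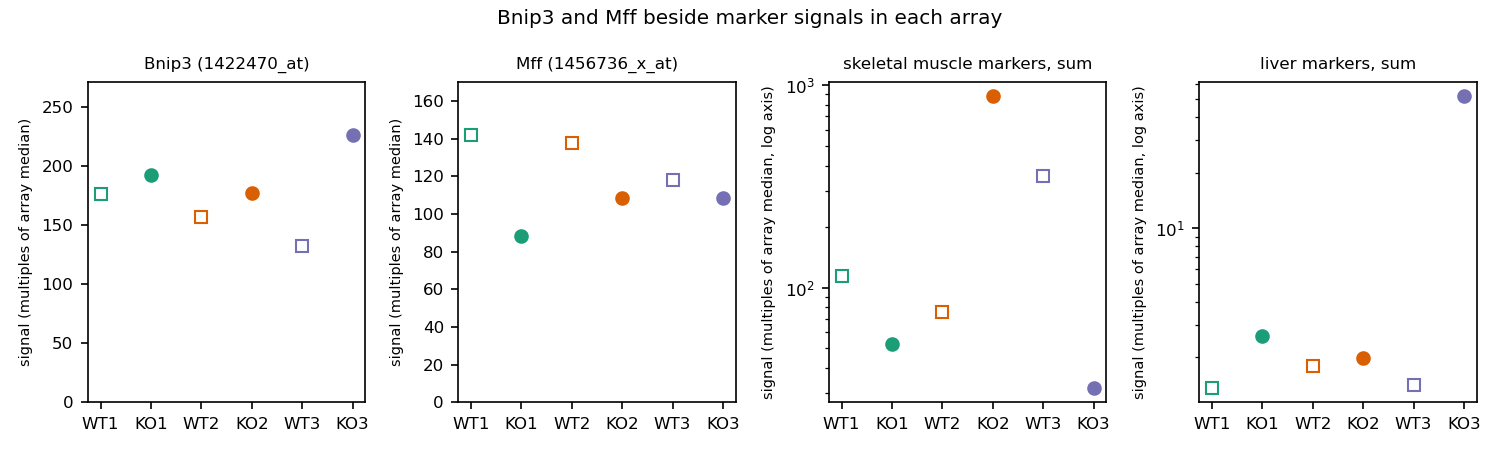
Signals of Bnip3 and Mff (linear axes from 0) beside the summed signals of 10 skeletal muscle and 7 liver markers (log axes) in each array, all as multiples of the array median, with open squares for WT, filled circles for KO and 1 colour for each littermate pair. Muscle markers stand highest in KO 2 (882) and WT 3 (356) and liver markers in KO 3 (51.9), while Bnip3 is highest in KO 3 and lowest in WT 3.

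Counts of members whose genotypes did not overlap were read against the whole array. All KO signals lay above all WT signals in 2 of the 22 (9.09%), Bnip3 and 1 probe set of Yme1l1, against 4.59% of all tested probe sets. All KO signals lay below all WT signals in 4 (18.2%), namely 2 of Mff and 1 each of Mfn2 and Dnm1l, against 7.16%. KO was higher in all 3 pairs in 3 members (13.6%) against 12.4%, and lower in 7 (31.8%) against 18.4%. These 7 were 2 probe sets each of Mff and Dnm1l and 1 each of Mfn2, Opa1 and Fis1. Several come from 1 gene, so the 22 are not independent trials.

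**Figure D4:**
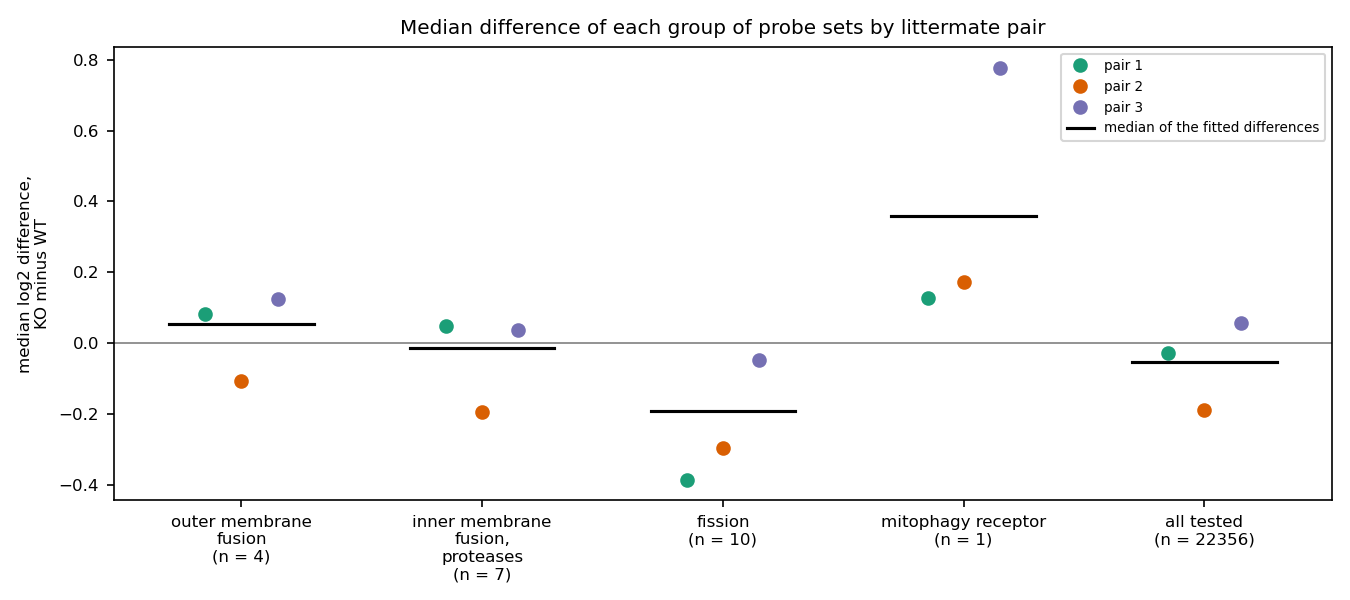
Median log2 difference, KO minus WT, of the tested probe sets of each role group and of all tested probe sets, with points for the 3 littermate pairs and bars for the median of the fitted differences. The fission group has its bar at -0.19 and the outer membrane fusion group at 0.053, beside -0.052 for all tested probe sets.

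Set side by side, the role groups had median log2 differences of 0.053 for the 4 tested mitofusin probe sets, -0.012 for the 7 of Opa1, Oma1 and Yme1l1, and -0.19 for the 10 of the fission genes. In pair 1 the mitofusin median was 0.081 and the fission median -0.39. In pair 2 they were -0.11 and -0.30, and in pair 3 0.12 and -0.046. The fission median was thus the lower one in each of the 3 pairs. It also was after quantile normalization, where the fitted medians were 0.13 for the mitofusins and -0.12 for fission. Of the 4 mitofusin probe sets, 3 are of Mfn1. On 1 probe set per gene, that with the highest mean, the mitofusin median was -0.080, with 0.019, -0.29 and 0.030 by pair. The fission median was then -0.15, with -0.18, -0.32 and 0.0023, so the groups lay close in pairs 2 and 3. Genes within a group differed, since 1 mitofusin (Mfn2) was at -0.16 and Mief1 at -0.12 and -0.085. The difference between the groups was not tested.

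As Bnip3 is a known target of hypoxia-inducible factors, 12 hypoxia-responsive genes were set beside it, 11 of them measured, each on its probe set with the highest mean. None passed the adjusted test, 1 was higher and 1 lower in all 3 pairs (10.9% and 19.7% of all 11140 genes measured), and the median log2 difference was 0.047 beside -0.071 over all genes. By pair the list median was 0.30, -0.21 and 0.054, beside Bnip3 differences of 0.13, 0.17 and 0.78, and whether they move together was not tested. Vegfa, an angiogenic growth factor, was the gene higher in all pairs, at 0.29, and the oxygen sensor Egln1 the one lower, at -0.43. Pdk1, which restrains pyruvate oxidation, was at -0.24. Adm, a vasodilator peptide gene with weak signals (means of 1.30 in KO and 1.14 in WT), was at 0.58, with ratios of 8.25, 1.15 and 0.691. Its value thus came from pair 1, where WT 1 read 0.127, below the floor of 0.25. The fit used the floor in place of that signal, and the ratio of 8.25 did not. Egln3, a further oxygen sensor, was at 0.42, but its other probe set gave -0.13.

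Further genes of mitochondrial dynamics, on the same footing, gave 0 adjusted calls. Of 13 measured genes of fusion and inner membrane shape, 1 was higher (Pld6) and 3 were lower (Opa3, Chchd3, Stoml2) in all 3 pairs, and the median was -0.035. The other probe sets of Chchd3, which was at -0.17, gave -0.22 to 0.50. Opa3, an inner membrane protein mutated in optic atrophy, averaged 5.38 ± 0.729 for KO against 9.18 ± 3.01 for WT (SD, n = 3). Its log2 difference was -0.73 (adjusted p = 0.496 in limma), with ratios of 0.829, 0.431 and 0.609, and its other probe sets gave -0.83 to -0.36. The gap was widest in pair 2, where WT 2 read 12.7, against 7.32 in WT 1 and 7.58 in WT 3. Immt, the core of the complex at cristae junctions, was at -0.26. Pld6, an outer membrane phospholipase, was at 0.68 with ratios of 1.71, 2.40 and 1.01, and its WT 2 signal of 0.710 lay below the array median. The prohibitin Phb2 was at 0.18.

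Among 10 measured genes of fission beyond the members, 0 were higher and 2 lower in all 3 pairs, and the median was -0.019. The formin Inf2, which builds actin at division sites, was at -0.63 (ratios 0.690, 0.402 and 0.978), but its other probe set gave 0.11. On the former, WT 2 read 10.6, against 6.30 in WT 1 and 6.63 in WT 3. Mul1, an outer membrane ubiquitin ligase, was at -0.34. The actin nucleator Spire1 was at 0.25, with other probe sets from -0.68 to 0.16. Marchf5, a ubiquitin ligase that acts on DRP1, was at 0.098, with others from -0.22 to 0.64. Mief2, the paralog of Mief1, was at 0.0027. Of the 10 genes, 5 lay below 0.

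In mitophagy 6 genes were measured, with 1 higher (Bcl2l13) and 1 lower (Sqstm1) in all 3 pairs and a median of -0.10. Sqstm1, the autophagy adaptor p62, was at -0.60 with ratios of 0.593, 0.593 and 0.813, and the kinase Tbk1 at -0.35. Of the mitophagy receptors, Fundc1 was at -0.085, with other probe sets from -0.20 to -0.17. Bcl2l13 was at 0.21 (0.0026 on its other probe set) and Fkbp8 at 0.12 (ratios 1.27, 0.871 and 1.15), beside 0.36 for Bnip3. Bnip3l, its closest relative, shares its probe sets with a pseudogene and is not analysed here. Of the 4 genes that couple mitochondria to motors, 0 were higher and 1 (Trak2) was lower in all 3 pairs. The adaptors Trak2 and Trak1 were at -0.42 and -0.29, and the other probe sets of Trak1 gave -0.13 to 0.29. The GTPases Rhot2 and Rhot1 were at -0.051 and -0.036, with 0.015 on the other probe set of Rhot1. The median of the 4 was -0.17, or -0.039 on the mean over the probe sets of each gene.

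General mitochondrial genes gave a scale for these values. Of 11 measured, 1 was higher (Tomm40) and 0 were lower in all 3 pairs, and the median was -0.025. They ran from -0.13 for the chaperone Hspa9 and -0.091 for the chaperonin Hspd1 to 0.11 for the mitochondrial DNA factor Tfam and 0.22 for the import pore Tomm40. Other probe sets of Hspa9 gave -0.16 to 0.37 and that of Tfam -0.15, so both genes have values of either sign. Those of Cycs gave -1.18 to -0.10 and those of Tomm20 -0.30 to 0.11. The range above thus holds only for the probe set with the highest mean of each gene. By pair the median of the 11 general genes was -0.048, -0.24 and 0.23. The 4 fission members, each on its probe set with the highest mean, had -0.18, -0.32 and 0.0023. They stood below the general genes in each pair. So did Opa1, Oma1 and Yme1l1 on the same footing, with medians of -0.21, -0.25 and -0.0019. The genes that couple mitochondria to motors (-0.28, -0.48 and 0.0025) and the further mitophagy genes (-0.083, -0.27 and 0.083) did as well. Other groups did not. The mitofusins (0.019, -0.29 and 0.030) and the further fusion genes (0.089, -0.26 and 0.16) lay above the general genes in pair 1. The further fission genes (-0.18, -0.11 and 0.10) lay above them in pair 2. None of these differences was tested.

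The genes whose profile over the 6 arrays was most like that of Mff (1456736_x_at) were sought among 19251 tested probe sets with a single symbol, by the root mean square difference between log2 profiles centred on their own means. The 5 nearest were Mindy2, Rai1, Kif3b, Lrwd1 and Cul3, at 0.0540 to 0.0637 log2 units, where the median over all those compared was 0.334. Mindy2, a deubiquitinase, had signals of 9.40, 12.5 and 12.2 for KO and 15.4, 16.4 and 13.5 for WT. Cul3, the scaffold of a ubiquitin ligase, had 5.55, 7.28 and 6.76 for KO and 9.27, 9.29 and 7.002 for WT. As in Mff, the lowest signal of both was that of KO 1, which follows from their choice by likeness to Mff. Likeness over 6 arrays is a description of these libraries.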

How the data were processed

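The authors hybridised total RNA from BAT of 3 KO and 3 WT mice, 1 array per animal, and deposited 1 linear signal intensity per probe set, made with GCOS per the labels (version and scaling not given in the sources). Here 64 control probe sets were set aside, intensities were divided by their array's median, floored at 0.25 and put on the log2 scale. Probe sets with a mean above 1 (22356 of 45037) were tested in limma 3.58.1 (R 4.3.3), with terms for genotype and pair and adjustment by Benjamini and Hochberg over all of them. The fit was tested on simulated data with planted changes far larger than any member difference. That test therefore says nothing about differences of the size seen in the members. The design text of the series names the pairs. Within pairs 1 to 3 the arrays' deviations from their group means had correlations of 0.446, 0.0847 and 0.160, and those of unmatched KO and WT arrays ran from -0.36 to 0.28, with KO 2 closer to WT 3 (0.281) than to WT 2. Symbols came from a platform annotation: 932 probe sets carried several, 9160 were unlisted, and of the 34945 with 1 symbol 34741 were found in the GRCm38.p6 gene table.

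Members and lists were chosen with earlier results of these data known. Named were all members and the 2 lowest and 2 highest genes of each of 6 further lists. Also named were any genes of those lists at 1.5-fold in all 3 pairs (there were 0) and genes of small counts. Mief2, Fundc1, Cycs and Tomm20 were chosen after their values were seen. Alternatives were other scalings, floors, filters and priors, no pair block, each pair left out in turn, and the mean over a gene's probe sets.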

Additional observations from a re-analysis of the deposited data

How the results depend on the processing

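No member probe set passed the adjusted test under any of the alternatives tried. At an unadjusted p under 0.05 there were 3 members of 22 with the robust prior and trend (2372 of 22356 probe sets), 1 of 26 with no filter (3178 of 45037), and 0 in the others. In the fit without the replicate block (unpaired), 0 of 22356 probe sets passed, as with it, and 1283 had an unadjusted p under 0.05. Over all probe sets 0 passed as reported (1911 unadjusted), whereas 123 passed with a pseudocount of 1 for the floor, 40 when the mean had to exceed 2, 311 when the prior was robust with an intensity trend, and 0 to 224 with 1 pair left out, the 224 without pair 1. The cause was not tested. Of 241 member values recomputed, 17 changed sign. With intensities as deposited these were Opa1 1449214_a_at (0.049), Yme1l1 1450954_at (0.0035), Dnm1l 1452638_s_at (0.038) and Fis1 1416764_at (0.037). After quantile normalization they were Opa1 1449214_a_at (0.060), Yme1l1 1450954_at (0.020) and Fis1 1416764_at (0.060). With 1 pair left out the log2 differences ran from -0.052 to 0.097 for Mfn1 1449697_s_at, -0.078 to 0.078 for Opa1 1449214_a_at, -0.23 to 0.036 for Yme1l1 1450954_at, -0.46 to 0.26 for Dnm1l 1452638_s_at, -0.22 to 0.17 for Fis1 1416764_at, -0.15 to 0.020 for Mief1 1434712_at and -0.30 to 0.0065 for Mief1 1434713_at. The member median, -0.072 as reported, was -0.0099 with intensities as deposited, -0.0031 after quantile normalization, and -0.22 (without pair 3) to -0.014 (without pair 2) with 1 pair left out. Members with 1 direction in all 3 pairs numbered 10 as reported and 9 to 12 elsewhere, a count not defined with a pair left out. The number of arrays limits the precision.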
